A study of Mus musculus with 88 samples.

Results

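Interferon-induced genes and the transcription factors of the interferon regulatory factor (IRF) and STAT families were followed in hearts of mice that develop coronary disease and infarcts without surgery. The group lists 32 genes by symbol, and each was read from the probe set that the array's annotation gives to that gene alone, taking the probe set with the highest mean signal where a gene had several. Of these 32 genes, 27 were measured, among 8252 genes with a probe set of their own on the array. Irf2, Stat2 and Bst2 had no probe set in that annotation, and Tgtp1 and Ifi203 had only 1 probe set each that is shared with other genes, so these 5 were not measured and no STAT member of the list has a value.

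Whole hearts from 88 mice, 1 mouse per array, were hybridised to Affymetrix expression arrays. The diseased genotype, called dKO, lacks both the HDL receptor SR-BI (gene Scarb1) and apolipoprotein E (SR-BI-/- apoE-/-), and the controls, called HET, carry 1 working SR-BI allele and also lack apolipoprotein E (SR-BI+/- apoE-/-). All mice therefore lack apolipoprotein E, and no wild-type heart enters the comparison. Per the study's design text, coronary disease is not detectable in dKO mice on chow aged 21 days; at 31 days they have small infarcts and failing hearts, and by 43 days the infarcts are extensive and failure is severe. HET mice on chow have no detectable coronary disease. The dKO groups on chow held 10, 10 and 12 hearts at 21, 31 and 43 days, and the HET groups 9, 10 and 9. Probucol, an antioxidant that lowers cholesterol, was fed to further mice, of which 6, 8 and 6 were dKO and 3, 3 and 2 HET. Sex and strain are not given in the sources used here, and each heart was measured whole, with infarcted and surviving muscle, resident cells and infiltrating cells together.

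Type I interferons signal through the receptor pair Ifnar1 and Ifnar2 and the kinases Jak1 and Tyk2 to a complex that holds Stat2 and Irf9 and binds the interferon-stimulated response element; interferon gamma signals through Ifngr1 and Ifngr2 to genes with a gamma-activated site. The genes that interferons switch on include antiviral effectors (Rsad2, Isg20, the Ifit and Mx proteins), the ubiquitin-like modifier Isg15 with its conjugating enzyme Ube2l6 and its protease Usp18, and the guanylate-binding proteins and immunity-related GTPases (Gbp2, Gbp3, Igtp, Irgm1, Ifi47), which are strongly induced by interferon gamma. After a myocardial infarct, macrophages that take up dead cells are a known source of type I interferon signalling through Irf3.

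Promoter windows, from 250 bases before to 50 bases after the start of each gene, were taken from RefSeq (mouse build GRCm38.p6), and 27 of the 32 listed genes had one. The core of the interferon-stimulated response element, searched as GAAANNGAAA on both strands, was present in 15 of these 27 genes and in 3.99% of all 27025 genes with a window. A gamma-activated site, searched as TTCNNNGAA, which reads the same on both strands, was present in 12 of 27 genes and in 9.55% of all genes; matches of the 2 patterns may share bases. The 180 bases before the start are printed here for the genes with the largest genotype differences that hold a match, and for Ifit1 and Ifit3, which hold response element cores and had no called genotype difference on chow. Capitals mark the response element core in Rsad2, Isg15, Ifit1 and Ifit3 and the gamma-activated site in Isg20 and Irf8.
Rsad2 (chr12:26456453-26456632, minus strand): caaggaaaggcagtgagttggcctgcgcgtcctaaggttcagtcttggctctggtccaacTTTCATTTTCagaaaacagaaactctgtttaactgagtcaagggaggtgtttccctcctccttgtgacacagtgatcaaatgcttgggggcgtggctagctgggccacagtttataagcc
Isg15 (chr4:156200819-156200998, minus strand): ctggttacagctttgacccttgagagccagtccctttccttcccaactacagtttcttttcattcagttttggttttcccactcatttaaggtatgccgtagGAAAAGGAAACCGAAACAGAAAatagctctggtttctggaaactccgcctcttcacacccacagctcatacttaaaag
Isg20 (chr7:78913244-78913423, plus strand): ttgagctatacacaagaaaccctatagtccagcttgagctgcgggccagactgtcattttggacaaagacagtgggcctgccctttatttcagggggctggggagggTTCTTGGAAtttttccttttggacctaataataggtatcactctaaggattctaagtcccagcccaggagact
Irf8 (chr8:120736178-120736357, plus strand): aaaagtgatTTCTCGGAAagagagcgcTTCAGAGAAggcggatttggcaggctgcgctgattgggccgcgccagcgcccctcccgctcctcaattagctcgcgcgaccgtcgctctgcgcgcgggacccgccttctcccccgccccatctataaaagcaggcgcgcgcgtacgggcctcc
Ifit1 (chr19:34640709-34640888, plus strand): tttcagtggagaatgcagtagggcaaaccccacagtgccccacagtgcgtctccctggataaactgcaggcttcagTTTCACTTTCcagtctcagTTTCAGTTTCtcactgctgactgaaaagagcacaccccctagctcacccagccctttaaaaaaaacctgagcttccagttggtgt
Ifit3 (chr19:34583349-34583528, plus strand): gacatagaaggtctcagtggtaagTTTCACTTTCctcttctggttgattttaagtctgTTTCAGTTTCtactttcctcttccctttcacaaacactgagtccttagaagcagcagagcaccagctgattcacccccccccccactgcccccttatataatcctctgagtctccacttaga
The Rsad2 core starts at position -120 from the start site, the 3 overlapping Isg15 cores at -78, -72 and -66, and the Ifit1 cores at -104 and -85. The site of Isg20 starts at -73, and those of Irf8 at -171 and -153. Isg20 has 3 windows and Irf8 has 2, and for each the first window with a match is printed. Any gene with several windows was counted as holding a match if 1 of them did. Among the 9 genes with a window that were higher in dKO hearts on chow at any age, 3 held a response element core (Rsad2, Isg15, Ifitm3) and 4 a gamma-activated site (Isg20, Irf8, Ifitm3, Adar). Of the 13 measured genes with a window that were not, 7 held a core (Ifit1, Ifit3, Gbp2, Gbp3, Igtp, Irgm1, Eif2ak2) and 5 a gamma-activated site (Irf1, Ifit2, Igtp, Ifi35, Eif2ak2). A match is a string of letters in the window and not a shown binding site.

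Every level below is the log2 signal relative to the median probe set of the same array, so that 0 is that array's median, and every difference is a difference of group means of these log2 values. Tests are limma's moderated test across all 8252 genes with Benjamini-Hochberg adjustment within each comparison, called at an adjusted p below 0.05, and errors are standard errors (SE). The median signal of the arrays lay between 27.8 and 75.4, and pairs of arrays correlated at 0.818 to 0.970. Signals under the floor of 4.22 were raised to it, which touched Mx1 on 40 arrays, Ifi47 on 18, Ifit2 and Usp18 on 6 each, Rsad2, Ifit1 and Irgm1 on 2 each and Irf8 on 1. A value at the floor still moves with its array's median, since centring came after the floor. For these genes folds may therefore be compressed or shifted. The gene deleted in dKO mice, Scarb1, had a lower signal in their hearts on chow at each age. Its level ran from 1.70 over a median of 2.30 to 2.73, from 1.57 over 2.04 to 2.50 and from 1.52 over 2.14 to 2.43 in HET hearts on chow at 21, 31 and 43 days, and from 0.13 over 0.94 to 1.37, from 0.70 over 1.03 to 1.34 and from 0.78 over 1.03 to 1.52 in dKO hearts. The differences were -1.36 ± 0.14, -1.07 ± 0.13 and -1.04 ± 0.13 (adjusted p = 1.5e-12, 1.0e-09 and 1.6e-10), and the genotypes did not overlap at any of these ages. The summed cardiomyocyte markers, the defining genes of the labelled tissue, lay at 8.90 to 10.8 in all hearts. On chow 7 of 8 were lower in dKO hearts at 31 and 43 days, and 0 and 1 were higher. A second component of the residuals, holding 6.42% of their variance, split the arrays into sets of 68 and 20. Among chow hearts the smaller set took 6 of the 10 dKO and 2 of the 9 HET hearts aged 21 days. At 31 days it took 0 of 10 dKO and 6 of 10 HET hearts, and at 43 days 0 of 12 and 3 of 9. One heart stood apart for the genes described here: replicate 3 of the HET probucol hearts at 21 days had the highest value of all 88 hearts for 15 of the 27 members, against 128 (1.55%) of all 8252 genes, and the next heart was highest for 2 members. Counts that change without it are given both ways.

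On chow, 10 of the 27 members were higher in dKO than in HET hearts at 1 age or more, and 0 were lower at any age, led by the exonuclease Isg20 and the antiviral enzyme Rsad2. This count over the 3 ages has no share of all genes beside it, and the shares below are for single ages. At 21 days 5 of 27 members were higher and 0 lower (Ube2l6, Isg20, Rsad2, Irf8 and Ifitm3), where 2.36% of all genes were called higher and 0.8% lower. At 31 days 8 were higher and 0 lower (Isg20, Rsad2, Ifi47, Ube2l6, Adar, Irf8, Irf5 and Isg15), against 6.68% and 16.3% of all genes. At 43 days 9 were higher and 0 lower (Isg20, Rsad2, Ube2l6, Irf8, Ifi47, Isg15, Ifi204, Irf5 and Ifitm3), against 15.3% and 26% of all genes. The members' median difference was 0.38, 0.43 and 0.51 at the 3 ages, where the median over all genes was 0.06, -0.13 and -0.16. These shares depend on how arrays are scaled: as deposited, with no centring, 1287 genes were higher and 219 lower at 31 days, where centring gave 551 and 1344, and 8 and 9 members were called in both settings at 31 and 43 days. In a whole heart, more cells of a type that carries an mRNA and more of that mRNA per cell cannot be told apart.

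**Figure D1:**
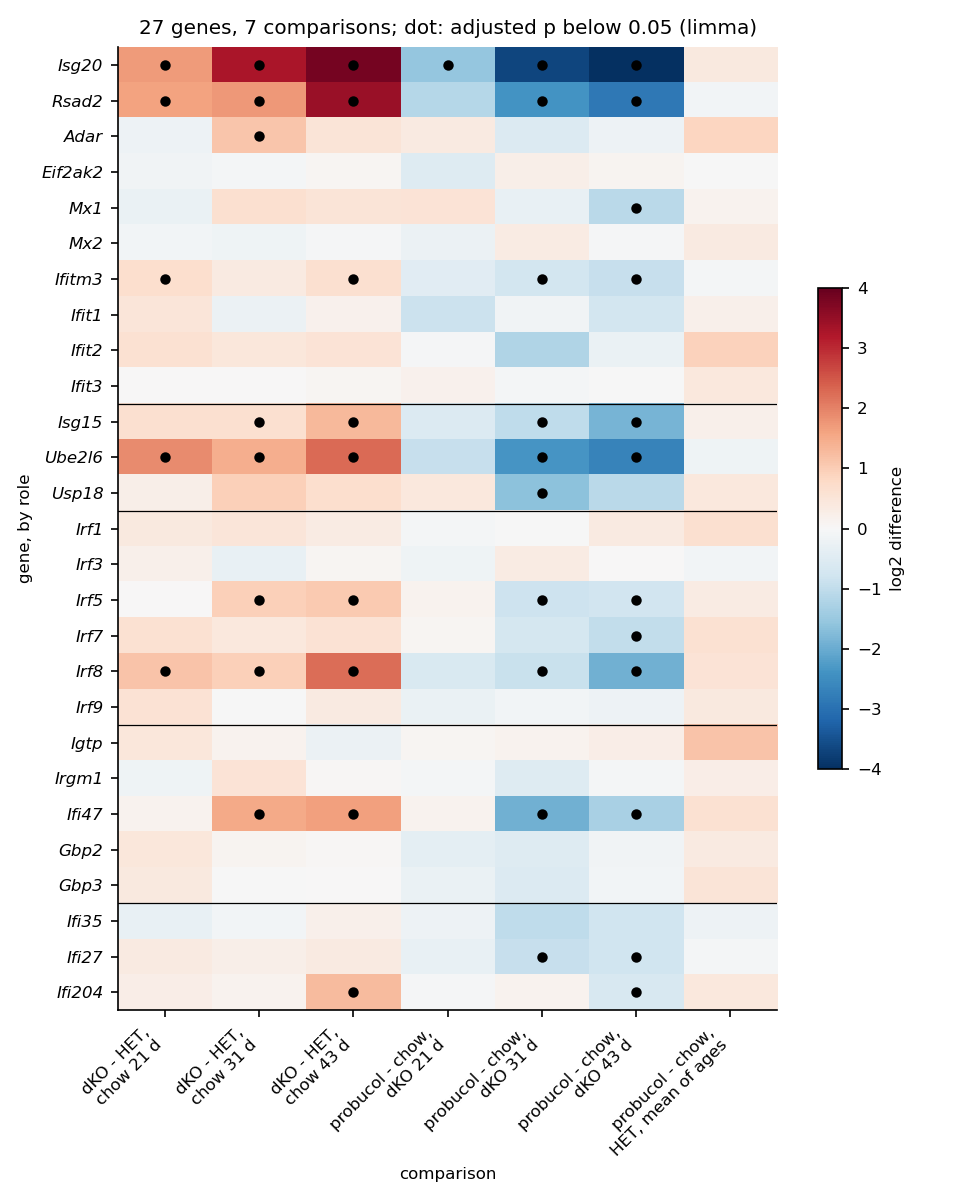
Log2 differences of the 27 measured members (vertical axis) in 7 comparisons (horizontal axis): dKO minus HET on chow at 21, 31 and 43 days, probucol minus chow in dKO at the same ages, and probucol minus chow in HET averaged over ages. Colour runs from -4 to 4, and a dot marks an adjusted p below 0.05. Isg20, with 3.81 at 43 days on chow and -4.51 on probucol, has the deepest colours, and 13 of the 27 members carry no dot in any column.

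Isg20, a 3' to 5' exonuclease that degrades viral RNA, had the largest difference. In HET hearts on chow its level ran from -2.42 over a median of 0.15 to 0.63 at 21 days, from -2.06 over -0.63 to 0.74 at 31 days and from -3.01 over -1.56 to -0.01 at 43 days. In dKO hearts on chow it ran from -0.77 over 1.80 to 2.30, from 2.02 over 2.47 to 2.88 and from 1.73 over 2.37 to 2.78. At 21 days the groups overlapped, and at 31 and 43 days every dKO heart was above every HET heart. The difference was 1.70 ± 0.35 at 21 days (3.25-fold, adjusted p = 0.0013), 3.25 ± 0.34 at 31 days (9.54-fold, adjusted p = 1.8e-12) and 3.81 ± 0.34 at 43 days (14.1-fold, adjusted p = 1.1e-16; SE, limma). The difference was larger by 1.55 at 31 days and by 2.11 at 43 days than at 21 days, both past the threshold. Between 21 and 43 days the level in HET hearts itself fell by 1.27 (SE 0.36, adjusted p = 0.047), the only age change in HET hearts that was called among the members (0 higher and 1 lower of 27, against 0.497% and 0.982% of all genes), and 7 of 17 other settings did not call it.

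Rsad2, or viperin, makes a chain-terminating nucleotide that blocks viral polymerases. On chow its HET level ran from -2.99 over -0.71 to 0.43 at 21 days, from -1.12 over -0.13 to 0.44 at 31 days and from -3.25 over -1.91 to -0.57 at 43 days. The dKO hearts ran from -0.56 over 0.96 to 1.77, from 0.89 over 1.70 to 2.16 and from 0.91 over 1.78 to 2.50. The groups overlapped at 21 days and were apart at 31 and 43 days. Its difference was 1.60 ± 0.33 (3.03-fold, adjusted p = 0.0016), 1.74 ± 0.33 (3.33-fold, adjusted p = 3.9e-05) and 3.46 ± 0.32 (11-fold, adjusted p = 1.2e-15; SE, limma), which was larger at 43 than at 21 days by 1.86. Between these ages the HET median went from -0.71 to -1.91 and the dKO median from 0.96 to 1.78. None of the age changes tested within HET or dKO hearts on chow was called for Rsad2.

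Isg15 is the ubiquitin-like modifier, Ube2l6 the enzyme that passes it to its targets, and Usp18 the protease that removes it and damps the receptor. Ube2l6 in HET hearts on chow ran from -2.19 over 0.09 to 1.19, from -1.48 over 0.60 to 1.62 and from -2.04 over -0.39 to 0.27 at the 3 ages. In dKO hearts it ran from 0.57 over 1.70 to 2.11, from 1.24 over 1.94 to 2.28 and from 1.31 over 1.47 to 1.96, and the groups overlapped at 21 and 31 days but not at 43 days. The differences were 1.88 ± 0.36 (3.67-fold, adjusted p = 4.0e-04), 1.47 ± 0.35 (2.76-fold, adjusted p = 0.0011) and 2.25 ± 0.34 (4.76-fold, adjusted p = 6.2e-08; SE, limma). Isg15 ran in HET hearts from 0.46 over 1.21 to 1.73, from 1.02 over 1.54 to 1.97 and from -1.13 over 1.02 to 1.23, and in dKO hearts from 0.43 over 1.75 to 2.58, from 1.82 over 2.08 to 2.64 and from 1.60 over 1.92 to 2.42. Its groups were apart at 43 days alone. Its difference was 0.63 at 21 days (adjusted p = 0.13), 0.63 ± 0.23 at 31 days (adjusted p = 0.034) and 1.29 ± 0.23 at 43 days (2.45-fold, adjusted p = 1.4e-06). The 31-day Isg15 call was lost with the array set as a block, within the larger set and with the actin ratio as a covariate. Usp18 gave 0.23, 0.96 and 0.68, with an adjusted p of 0.11 at 31 days and 0.21 at 43 days, and did not pass at any age.

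Among the IRF factors, Irf8 and Irf5, both known for their roles in macrophages and dendritic cells, were higher. Irf8 ran in HET hearts on chow from -3.33 over -0.53 to 0.01, from -0.81 over 0.09 to 0.63 and from -0.79 over -0.27 to 0.44. In dKO hearts it ran from -0.75 over 0.49 to 1.08, from 0.15 over 1.14 to 1.50 and from 1.67 over 1.94 to 2.42, so that the groups were apart at 43 days and overlapped before. The differences were 1.14 ± 0.27 (2.21-fold, adjusted p = 0.0055), 0.96 ± 0.26 (1.95-fold, adjusted p = 0.0038) and 2.22 ± 0.26 (4.66-fold, adjusted p = 8.0e-12), and the 43-day difference was larger than that at 21 days by 1.08. Irf5 ran in HET hearts from -0.06 over 0.37 to 0.57, from -0.90 over 0.31 to 0.80 and from -0.56 over 0.50 to 1.02, and in dKO hearts from -0.46 over 0.36 to 1.10, from 0.85 over 1.07 to 1.92 and from 0.96 over 1.46 to 1.73. Its groups lay together at 21 days, with a difference of 0.02, were apart at 31 days (0.96 ± 0.17, adjusted p = 1.6e-05) and overlapped only at their edges at 43 days (1.06 ± 0.17, adjusted p = 1.8e-07). The Irf5 difference grew by 0.94 from 21 to 31 days and by 1.04 from 21 to 43 days, both called.

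The other IRF members gave no called difference on chow. Irf7, the factor that amplifies type I interferon production, ran in HET hearts from -1.37 over -0.19 to 0.63, from -0.56 over 0.69 to 1.41 and from -0.28 over 0.51 to 1.31. In dKO hearts it ran from -1.54 over 0.71 to 1.44, from 0.45 over 1.15 to 1.56 and from 0.77 over 0.99 to 1.79, with overlap at each age and differences of 0.62, 0.43 and 0.57 (adjusted p = 0.24, 0.27 and 0.088). Irf1, an early target of interferon gamma, gave 0.38, 0.48 and 0.33 (adjusted p = 0.39, 0.11 and 0.24). Irf3, the factor that virus sensors activate by phosphorylation, gave 0.20, -0.29 and 0.09. Irf9, the DNA-binding part of the type I interferon complex, gave 0.59, -0.02 and 0.34 (adjusted p = 0.13 at 21 days and 0.19 at 43 days). Irf3 and Irf9 levels overlapped between the genotypes at each age.

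**Figure D2:**
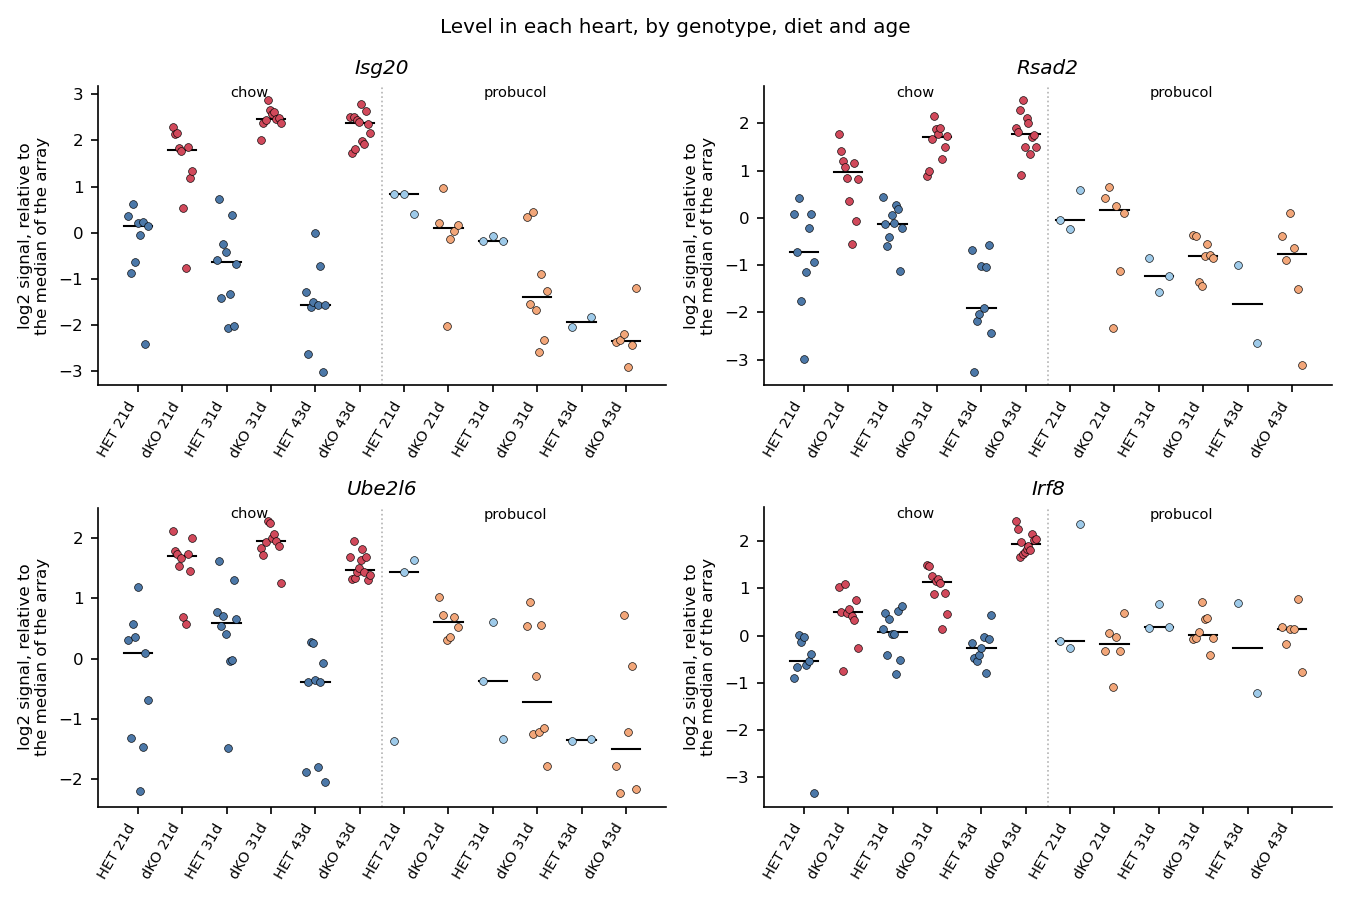
Level in each heart (vertical axis, log2 signal relative to the array's median) of Isg20, Rsad2, Ube2l6 and Irf8 in the 12 groups of genotype, diet and age (horizontal axis); each point is 1 heart and each bar a group median. The dKO hearts on chow stand above the HET hearts on chow, without overlap for all 4 genes at 43 days, and at 43 days dKO hearts on probucol stand below all dKO hearts on chow.

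Among the other effectors 4 were called on chow. Ifi47, an immunity-related GTPase, was near the floor in HET hearts, from -3.06 over -2.64 to -1.71, from -3.53 over -2.78 to -0.69 and from -3.23 over -2.48 to -1.71. In dKO hearts it ran from -3.12 over -2.40 to -1.27, from -2.45 over -0.76 to 0.16 and from -1.72 over -1.01 to -0.16, and the groups overlapped at 21 and 31 days, with highest HET and lowest dKO hearts almost level at 43 days. The difference was 0.15 at 21 days, 1.53 ± 0.40 at 31 days (2.88-fold, adjusted p = 0.0030) and 1.65 ± 0.40 at 43 days (3.14-fold, adjusted p = 4.0e-04; SE, limma). The 31-day difference ran from 0.42 to 1.85 over other settings, and its call was lost with the floor at the 30th percentile and within the larger array set. Ifitm3, a membrane protein that blocks virus entry, was called at 21 days (0.66 ± 0.16, adjusted p = 0.0074) and 43 days (0.63 ± 0.15, adjusted p = 4.3e-04) and not at 31 days (0.36, adjusted p = 0.079). Ifi204, a DNA-sensing protein of the p200 family, gave 0.26, 0.15 and 1.27 ± 0.23 (2.42-fold, adjusted p = 3.8e-06 at 43 days). Its probe set is of the kind that can read several members of a gene family, and the other 2 Ifi204 probe sets gave 2.11 and -0.49 at 43 days. Adar, an RNA editing enzyme, was called at 31 days alone (1.12 ± 0.31, adjusted p = 0.0046), and its second probe set gave -0.22 there and -0.74 at 43 days, so the Adar probe sets disagree in sign. The Adar call at 31 days was lost with averaged probe sets, with the array set as a block and within the larger set, where the difference went as low as 0.42 over all settings.

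The remaining 12 members gave no called genotype difference on chow. The Ifit genes, which bind viral RNA, gave 0.47, -0.24 and 0.16 for Ifit1, 0.62, 0.45 and 0.55 for Ifit2 and 0.02, 0.01 and 0.06 for Ifit3 at the 3 ages. Ifit3 shows how close the genotypes lay: HET hearts ran from -0.55 over -0.07 to 1.14, from -0.53 over 0.54 to 1.20 and from -0.35 over 0.28 to 1.16, and dKO hearts from -0.74 over -0.09 to 1.32, from -0.57 over 0.43 to 1.62 and from -0.17 over 0.38 to 1.37. The guanylate-binding proteins gave 0.45, 0.10 and 0.06 for Gbp2 and 0.39, -0.03 and 0.02 for Gbp3, and the GTPases Igtp and Irgm1 gave 0.46, 0.15 and -0.24, and -0.17, 0.55 and 0.04. Mx1 gave -0.27, 0.64 and 0.51, mostly from values at or near the floor, and Mx2 gave -0.11, -0.18 and -0.03. Ifi35 gave -0.30, -0.11 and 0.19, Ifi27 gave 0.37, 0.22 and 0.37, and Eif2ak2, the RNA-activated kinase that halts translation, gave -0.13, -0.09 and 0.08. A difference that misses the threshold does not show that the genotypes were alike.

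Within dKO hearts on chow, 6 of 27 members were higher and 0 lower at 31 than at 21 days, against 5.9% and 19.2% of all genes: Isg20 (1.05, adjusted p = 0.016), Irf5 (0.82), Ifi47 (1.38), Usp18 (1.26), Adar (1.10) and Irgm1 (1.08, adjusted p = 0.024). The log2 ratio of the 3' to the 5' actin control, a measure of RNA quality, averaged -0.16 at 21 days and 0.39 at 31 days in these hearts; with it as a covariate 3 members were called, 2 of them among these 6, and with the array set as a block 3, all among the 6. Without the heart that stood apart 7 were called, with Gbp3 added. From 31 to 43 days 2 were higher and 0 lower, against 5.72% and 8.53%: Irf8 (0.96, adjusted p = 0.0034) and Ifi204 (0.93). The genotype difference was larger at 31 than at 21 days for 3 members (Isg20, Irf5 and Adar) and smaller for 0, against 4.14% and 13.2% of all genes. With the array set, which runs opposite ways in the genotypes at these ages, as a block 1 member was called, and within the larger set 0 were; without the heart that stood apart 4 were called, with Ifi47 added. At 43 against 21 days it was larger for 6 (Isg20, Rsad2, Irf5, Irf8, Ifi47 and Ifi204) and smaller for 0, against 8.31% and 18.1%.

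How far the groups were apart was also counted without a model. At 21 days 0 members had every dKO heart above every HET heart on chow, against 0.158% of all genes (0.0242% below). At 31 days there were 3 (Rsad2, Isg20 and Irf5), against 0.824% (0.388% below), and at 43 days 5 (Rsad2, Isg20, Ube2l6, Isg15 and Irf8), against 3.87% (2.7% below). The array sets touch the 21-day result: within the larger set alone the differences were 1.59 for Ube2l6, 1.43 for Rsad2, 1.13 for Isg20 and 0.84 for Irf8, with 0 members called, and within the smaller set 2 were called. At 31 days 5 members were called within the larger set, in which all dKO hearts of that age lie. What the sets stand for was not tested.

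At 31 and 43 days dKO hearts on probucol had lower levels of Isg20, Rsad2, Ube2l6 and up to 9 further members than dKO hearts on chow. The comparison shares its chow hearts with the genotype comparison, so the results are not independent. At 21 days 1 of 27 members was lower and 0 higher, where 0.727% of all genes were called lower and 0.0848% higher. At 31 days 10 were lower and 0 higher, against 8.34% and 5.73%, and at 43 days 12 were lower and 0 higher, against 13.1% and 16.9%. The members' median difference was -0.20, -0.56 and -0.74, where the median over all genes was -0.07, 0.04 and 0.11.

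Isg20 in dKO hearts on probucol ran from -2.03 over 0.11 to 0.97 at 21 days, from -2.58 over -1.40 to 0.45 at 31 days and from -2.92 over -2.35 to -1.20 at 43 days. At 31 and 43 days every heart on probucol was below every dKO heart on chow. The difference from chow was -1.56 ± 0.39 (2.95-fold lower, adjusted p = 0.031), -3.67 ± 0.36 (12.8-fold lower, adjusted p = 2.2e-13) and -4.51 ± 0.38 (22.8-fold lower, adjusted p = 3.0e-17; SE, limma). The 21-day call was lost in 7 of 16 other settings, among them leaving out replicate 2 of the dKO chow hearts at that age. Rsad2 ran on probucol from -2.34 over 0.17 to 0.66, from -1.43 over -0.80 to -0.37 and from -3.12 over -0.76 to 0.10, below all chow hearts at 31 and 43 days. Its differences were -1.14 (adjusted p = 0.15), -2.39 ± 0.35 (5.25-fold lower, adjusted p = 1.6e-07) and -2.85 ± 0.36 (7.22-fold lower, adjusted p = 4.5e-10).

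Ube2l6 on probucol ran from 0.31 over 0.61 to 1.02, from -1.78 over -0.72 to 0.94 and from -2.23 over -1.50 to 0.73, again below all chow hearts at 31 and 43 days. Its differences were -0.92 (adjusted p = 0.35), -2.37 ± 0.37 (5.17-fold lower, adjusted p = 1.2e-06) and -2.67 ± 0.39 (6.36-fold lower, adjusted p = 2.6e-08). Isg15 ran from 0.89 over 1.15 to 1.47, from 0.04 over 1.24 to 2.16 and from -1.10 over 0.25 to 0.66, and was below all chow hearts at 43 days, with differences of -0.55, -1.03 ± 0.24 (2.04-fold lower, adjusted p = 0.0015) and -1.85 ± 0.26 (3.60-fold lower, adjusted p = 5.0e-09). Usp18 was called at 31 days (-1.64 ± 0.47, 3.13-fold lower, adjusted p = 0.011) and gave -1.09 at 43 days (adjusted p = 0.089).

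Irf8 on probucol ran from -1.08 over -0.18 to 0.48, from -0.41 over 0.02 to 0.70 and from -0.77 over 0.14 to 0.78, and lay below all chow hearts at 43 days. Its differences were -0.62 (adjusted p = 0.42), -0.89 ± 0.28 (1.86-fold lower, adjusted p = 0.018) and -1.92 ± 0.29 (3.77-fold lower, adjusted p = 6.6e-08). Irf5 gave 0.14, -0.83 ± 0.18 (adjusted p = 5.5e-04) and -0.75 ± 0.19 (adjusted p = 0.0011). Irf7, which had no called genotype difference, ran at 43 days from -0.39 over 0.28 to 0.45, below every dKO heart on chow, with a difference of -0.97 ± 0.31 (1.96-fold lower, adjusted p = 0.011), and gave -0.71 at 31 days (adjusted p = 0.096). The second Irf7 probe set gave -0.40 and -0.49 at these ages. Irf1 gave -0.09, -0.00 and 0.35, Irf3 gave -0.16, 0.34 and 0.02 and Irf9 gave -0.25, -0.12 and -0.19, none of them called.

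Of the other effectors, Ifi47 on probucol ran from -2.96 over -2.26 to -1.18, from -3.43 over -3.17 to -1.43 and from -3.41 over -2.23 to -1.03, overlapping the chow hearts at each age. It was lower at 31 days (-1.92 ± 0.43, 3.79-fold, adjusted p = 6.8e-04) and 43 days (-1.31 ± 0.45, 2.47-fold, adjusted p = 0.019). Ifitm3 was lower at both ages (-0.74, adjusted p = 6.1e-04, and -0.92, adjusted p = 9.0e-06), and so was Ifi27, an interferon-induced membrane protein (-0.92, adjusted p = 3.7e-04, and -0.80, adjusted p = 0.0014). At 43 days Mx1 (-1.07, adjusted p = 0.027) and Ifi204 (-0.66 ± 0.26, adjusted p = 0.049) also passed, and the Ifi204 call was lost in 6 of 16 other settings. Ifit1, Ifit2 and Ifit3 gave -0.15, -1.19 and -0.09 at 31 days and -0.74, -0.25 and -0.02 at 43 days, and none passed. Between probucol and chow 0 members had separate groups at 21 days (0.109% of all genes below, 0.0242% above). At 31 days 3 members lay wholly below (Rsad2, Isg20 and Ube2l6; 1.49% of all genes below, 0.364% above) and at 43 days 8 (Rsad2, Isg20, Ube2l6, Isg15, Irf7, Irf8, Ifitm3 and Ifi27; 5.84% below, 4.81% above).

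In HET hearts probucol gave 0 called members in either direction, averaged over ages with limma, where 0.291% of all genes were higher and 1.31% lower. Isg20 was 0.85, 0.83 and 0.41 in the 3 HET probucol hearts at 21 days, -0.18, -0.06 and -0.18 at 31 days and -2.04 and -1.84 at 43 days, lower at each later age, as the HET chow medians of 0.15, -0.63 and -1.56 were. Rsad2 was -0.05, -0.24 and 0.59, then -0.85, -1.57 and -1.22, then -0.99 and -2.65. The mean probucol difference in HET hearts was 0.40 for Isg20, -0.10 for Rsad2 and -0.18 for Ube2l6. On probucol 0 members differed between dKO and HET hearts, against 0.0242% of all genes higher and 0.0364% lower. The probucol difference was more negative in dKO than in HET hearts for 13 members and less so for 0, against 6.2% and 7.34% of all genes, with -3.65 ± 0.38 for Isg20, -2.03 ± 0.36 for Rsad2, -1.81 for Ube2l6, -1.70 for Irf8, -1.33 for Isg15 and -1.14 for Irf7. Without the heart that stood apart it was 8, losing Ifit2, Gbp3, Adar, Ifi27 and Ifi47.

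That heart, replicate 3 of the HET probucol hearts at 21 days, was high in the guanylate-binding proteins, the immunity-related GTPases and the Ifit genes. Igtp was 0.15, -0.55 and 6.63 in the 3 hearts of its group, 115-fold above the median of the other 87 hearts, whose highest was 1.69. Gbp2 was 0.29, 0.42 and 5.77 (next highest 1.99), Gbp3 was 0.79, 1.29 and 5.67 (next 2.68) and Irgm1 was -0.68, -0.40 and 4.34 (next 1.11). Ifi47 was at the floor in both other hearts and 3.01 in this one, 39.0-fold above the median of the others.

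Of the Ifit genes, Ifit3 was -0.25, -0.29 and 3.55 in the same 3 hearts (next highest 1.62) and Ifit1 was -2.56, -0.87 and 2.67 (next 1.43). Usp18 was -0.35, -2.82 and 1.85 (next 0.40). Among the factors, Irf1 was 1.81, 1.48 and 4.67 (next 2.41), and Irf7 was 2.94 in the heart that stood apart (next 1.79). The genes that were called in dKO hearts on chow ranked from 1 to 38 from the top of the 88 hearts there. The 88 hearts include the dKO hearts on chow, in which these genes were higher. Isg20 at 0.41 ranked 38 from the top, Rsad2 at 0.59 ranked 31 and Ube2l6 at 1.64 ranked 21. Isg15 at 2.65 and Ifi47 were the highest of all hearts, Irf8 at 2.37 (4.64-fold above the median of the others) and Adar at 0.29 ranked 2, Ifitm3 at 6.07 ranked 3, Ifi204 at 1.98 ranked 7 and Irf5 at 1.14 ranked 16. Scarb1 in this heart was 1.90, with 1.66 and 2.10 in the other hearts of its group. Its summed macrophage markers were 7.23 against 6.38 and 6.53, above every other HET heart (next highest 7.09, on chow at 31 days). None of the 17 macrophage markers was highest of the 88 hearts there. Those hearts include dKO hearts on chow, with sums of up to 8.51 at 31 days and 8.86 at 43 days. Without this heart the members' median probucol difference in HET hearts was 0.01, where it was 0.37 with it, and the counts of 5, 8 and 9 on chow and of 1, 10 and 12 for probucol in dKO hearts were as before.

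**Figure D3:**
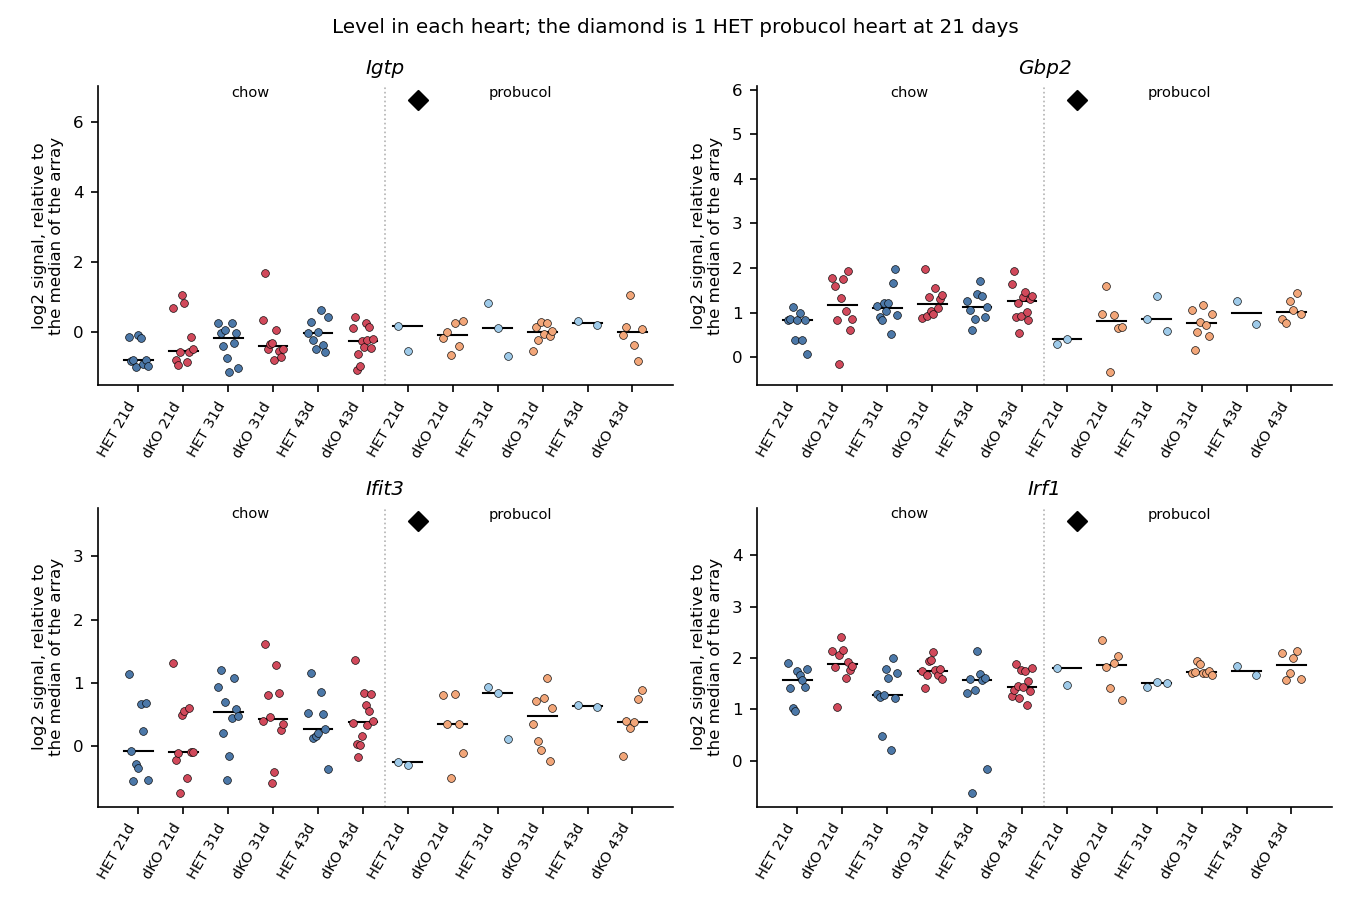
Level in each heart (vertical axis, log2 signal relative to the array's median) of Igtp, Gbp2, Ifit3 and Irf1 in the 12 groups (horizontal axis), with group medians as bars and replicate 3 of the HET probucol hearts at 21 days as a diamond. The diamond lies at 6.63, 5.77, 3.55 and 4.67, above every other heart, and the dKO and HET hearts on chow overlap.

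Other genes of the interferon pathway were read from a list by role, against the shares of all genes given above for each comparison. Of 8 measured ligands and inducers, 0 were called at 21 and 31 days on chow and 2 were called lower at 43 days, Il15 (-1.09 ± 0.36) and Ifng. Ifng was at the floor in 6 of 9 HET and 10 of 12 dKO hearts of that age, so no difference is given for it. Il15 was higher on probucol at 43 days (1.39). Of 7 receptors and kinases, Ifngr2 was lower in dKO hearts at 31 and 43 days (-0.72 ± 0.17 and -1.50 ± 0.17), and Ifngr1 (0.46), Jak1 (0.55) and Jak2 (0.72) were higher at 43 days. Of 7 other STAT and IRF genes, Stat6 was higher at 21 and 43 days (0.40 and 0.43), Stat5b at 31 days (1.39 ± 0.43), and Stat5a was lower at 31 and 43 days (-0.41 and -0.62). Irf4 (-0.68) and Irf2bp1 (-0.41) were lower at 43 days. Irf4 was near the floor. Over the 87 hearts without the one that stood apart its median was -2.91 and its highest value -1.16, so its difference is uncertain.

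Of 5 measured sensors and adaptors, Myd88, the adaptor of Toll-like receptors, was higher in dKO hearts at 43 days (1.66 ± 0.32) and lower on probucol (-1.25 ± 0.37), and the kinase Tbk1 was higher at 43 days (0.61). Among 11 negative regulators, 3 were higher and 1 lower at 31 days and 4 higher and 1 lower at 43 days, led by the phosphatase Ptpn6 (1.54 ± 0.34, then 2.76 ± 0.33) and by the feedback inhibitor Socs3 (0.98 ± 0.34, then 2.58 ± 0.34), with Cish lower (-0.50, then -0.93); without the heart that stood apart Socs1 made it 5 higher at 43 days. Of 28 other induced genes, 1 was higher at 21 days (B2m, 1.10), 4 at 31 days and 14 at 43 days, with 0, 0 and 1 lower. Ifi30, a lysosomal thiol reductase of antigen processing, had 1.38 ± 0.31 and 2.66 ± 0.30, and the chemokine Cxcl10 1.25 at 31 days. Cxcl10 was near the floor. Over the 87 hearts without the one that stood apart its median was -2.83 and its highest value -0.54, so its difference is uncertain. At 43 days Trim30a had 1.43, the MHC class I gene H2-D1 1.19 and the immunoproteasome subunit Psmb9 1.17, and Iigp1 was lower (-0.81). On probucol 0, 8 and 8 of these 28 were lower in dKO hearts and 0 higher. In HET hearts 3 were higher on probucol (Samhd1, H2-K1 and H2-D1), and 11 had a more negative probucol difference in dKO than in HET hearts. Without the heart that stood apart, 2, 7 and 14 of the 28 were higher in dKO hearts on chow at the 3 ages, 0, 10 and 10 were lower on probucol, 0 were higher on probucol in HET hearts and 5 differed in their probucol difference.

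Markers of other cell types were read in the same comparisons. The called macrophage and erythroid markers went in the same directions as the called members, higher in dKO hearts on chow and lower on probucol. A larger share of these markers than of the members was called. The other lists went in these directions less evenly or not. Counts on chow stand against 2.36%, 6.68% and 15.3% of all genes higher and 0.8%, 16.3% and 26% lower at the 3 ages. For probucol in dKO hearts the shares were 0.727%, 8.34% and 13.1% lower and 0.0848%, 5.73% and 16.9% higher. Of 17 measured macrophage markers 9, 14 and 17 were higher in dKO hearts on chow at 21, 31 and 43 days, and 3, 15 and 17 were lower on probucol. Their summed signal on the log2 scale lay at 6.04 to 6.36, 5.99 to 7.09 and 5.95 to 6.85 in HET hearts on chow, at 6.31 to 7.25, 7.20 to 8.51 and 8.03 to 8.86 in dKO hearts on chow, and at 6.21 to 6.66, 6.37 to 6.73 and 6.32 to 6.64 in dKO hearts on probucol. Of 3 measured erythroid markers all 3 were higher in dKO hearts on chow at each age, and 2, 3 and 3 were lower on probucol. Their sums lay at 6.90 to 8.10, 6.63 to 7.69 and 5.60 to 7.0 in HET hearts on chow and at 7.89 to 8.59, 7.45 to 8.39 and 7.30 to 8.45 in dKO hearts on chow, apart at 43 days alone. Fibroblast markers gave 0, 1 and 5 higher and 0, 2 and 1 lower of 7 on chow, with sums at 43 days of 6.95 to 7.80 in HET and 8.10 to 8.46 in dKO hearts, and 0, 2 and 5 were lower and 0, 1 and 1 higher on probucol. Endothelial markers gave 2, 0 and 2 higher and 0, 1 and 0 lower of 8 on chow, and 1, 2 and 2 were lower and 0, 0 and 1 higher on probucol. T and NK cell markers gave 0 higher and 0, 1 and 2 lower of 10, and B cell markers 0, 1 and 1 higher and 0, 3 and 2 lower of 6. Dendritic cell markers gave 0, 0 and 1 higher of 5, and neutrophil markers 0, 2 and 2 higher and 1, 0 and 1 lower of 9. No marker of these lists was at the floor on all hearts of a chow group. In some chow groups a large share of hearts was at the floor for Cd3g, Cd8a and Klrd1 (T and NK cells), Ccr7 (dendritic cells) or Cxcr2 (neutrophils). Differences in these markers can be missed. The part of these cells in the members' differences was not tested.

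Within groups, members differed in how they followed the macrophage markers. Each heart's deviation from its group mean was set against the deviation of the summed macrophage and erythroid markers over 87 hearts, without the heart that stood apart, with 100000 permutations within groups and 54 relations adjusted together. With the macrophage sum 14 of 27 members passed, all in the positive direction. Ifitm3 had r = 0.69 and rho = 0.67 (permutation, adjusted p = 0.00018), and r = 0.69 without the 2 hearts farthest from the median of the sum. Ifi204 had r = 0.59 and rho = 0.62 (0.59 without 2 hearts), and Irf7 r = 0.46 and rho = 0.52 (0.48 without 2 hearts). Ube2l6 had r = 0.30 and rho = 0.32 (adjusted p = 0.00972 for r, permutation; 0.34 without 2 hearts and 0.18 with the array set removed) and Irf8 r = 0.24 and rho = 0.27 (adjusted p = 0.0398). For Isg20, r was 0.07 and rho 0.02 (adjusted p = 0.636), and for Rsad2 both were 0.13 (adjusted p = 0.285). The median r of the members was 0.24, where that of all genes was 0.07. With the erythroid sum 7 members passed, 6 of them in the positive direction, and the members' median r was 0.091, where that of all genes was 0.057. The permutation test was run on the members alone, so the counts of 14 and 7 have no share of all genes to set beside them. The largest was Ube2l6 (r = 0.41, rho = 0.41, adjusted p = 0.00243, 0.35 without 2 hearts), and Isg20 had r = 0.27 and rho = 0.23 (adjusted p = 0.0646).

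**Figure D4:**
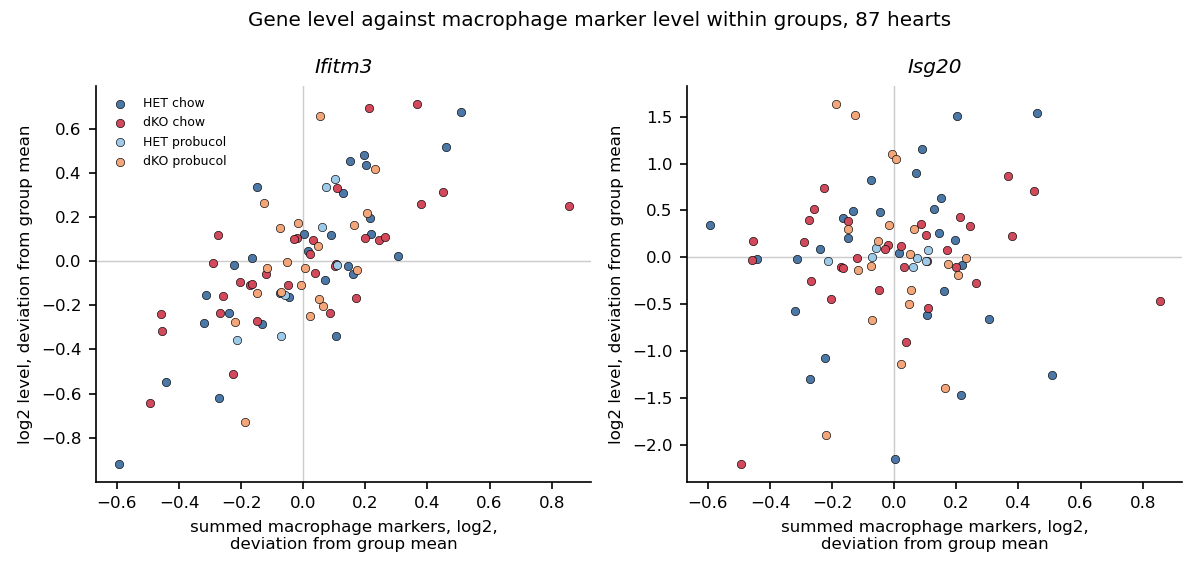
Deviation of each heart from its group mean for Ifitm3 and Isg20 (vertical axes, log2) against the deviation of the summed macrophage markers (horizontal axes, log2) in 87 hearts, coloured by genotype and diet. Ifitm3 rises with the markers (r = 0.69) and Isg20 shows no slope (r = 0.07).

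Members also varied with each other from heart to heart. Over the same 87 hearts, 81 of the 351 pairs of members passed the permutation test of r, 80 of them positive and 1 negative (Mx2 and Ifi27), with a median r of 0.13 over all pairs. Pairs with r of at least 0.5 made up 15 of 351 (4.27%), against 1.04% of all pairs of genes, and pairs with r of at least 0.4 made up 36 (10.3%), against 3.04%. Ifit1 and Ifit3, both on chromosome 19, had r = 0.68 and rho = 0.68 (permutation, adjusted p = 0.000319, r = 0.69 without 2 hearts). Ifit3 and Gbp3 had r = 0.66 and rho = 0.60 (0.62 without 2 hearts), and Ifi35 and Ifitm3 r = 0.64 and rho = 0.71 (0.65 without 2 hearts). In the positive direction Ifit3 and Gbp3 passed with 14 other members each, Ifitm3 with 13, Gbp2 with 12 and Ifit1, Irf7 and Irf9 with 11 each. The 4 genes with the largest genotype differences on chow at 43 days had few such partners. Isg20 passed with Ifi35 alone, Ube2l6 with Ifitm3 alone, Irf8 with Gbp2 alone and Rsad2 with 0. Of the other members with a called genotype difference, Isg15 had 9, Ifi204 had 8, Ifi47 had 3 and Irf5 and Adar had 0. Irf3, Eif2ak2, Mx1 and Mx2, with no called genotype difference, also had 0. Rsad2 and Isg20 had r = 0.28 and rho = 0.35 with each other (adjusted p = 0.0769 for r and 0.0125 for rho, permutation). The hearts share their array set and cell makeup; with the array set removed, r for Ifit1 and Ifit3 was 0.72.

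**Figure D5:**
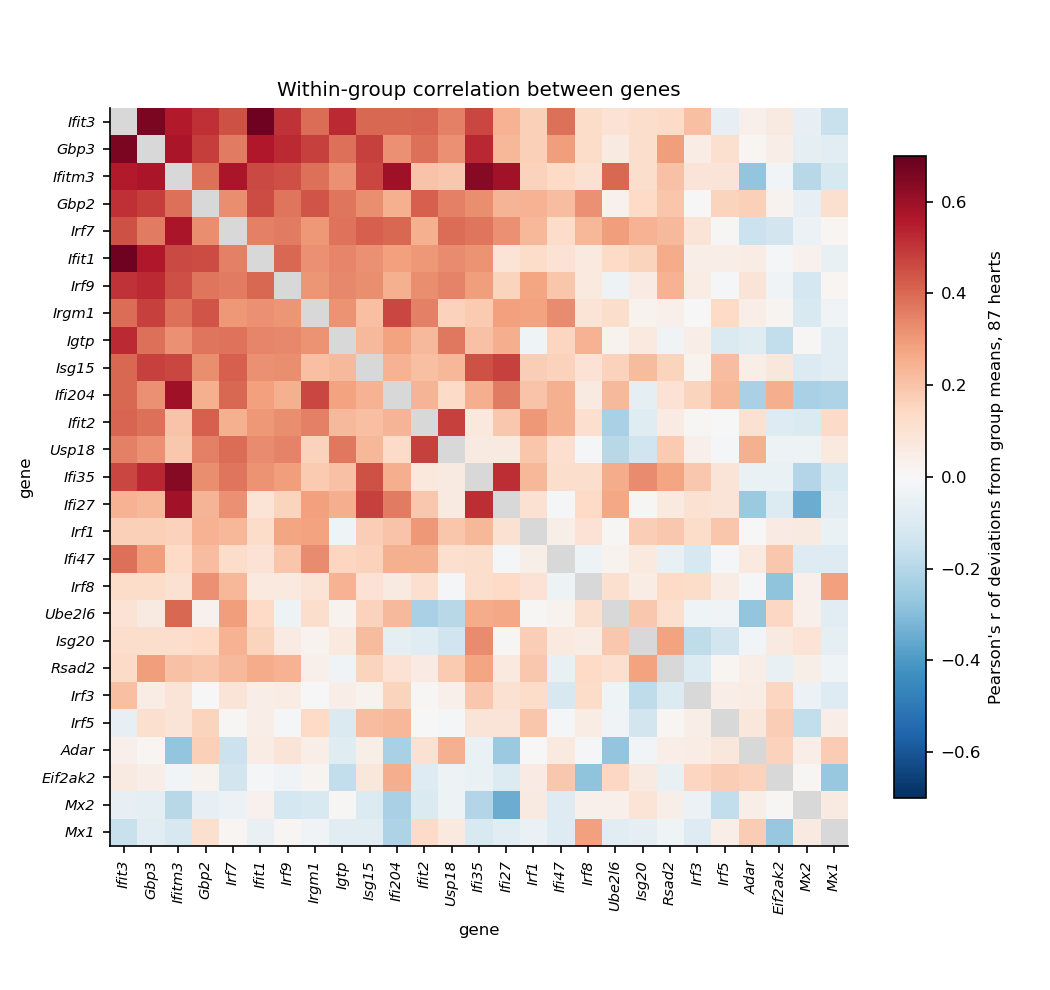
Pearson correlation between the 27 members (both axes, ordered by their number of called partners with positive r) over the within-group deviations of 87 hearts, with colour for r. Ifit3, Gbp3, Ifitm3 and Gbp2, with 14, 14, 13 and 12 partners, form a block of positive r, and Rsad2, Irf3, Irf5, Adar, Eif2ak2, Mx1 and Mx2, with 0 partners, show pale colours.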

How the data were processed

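Hearts from 88 mice in 12 groups of genotype, diet and age were measured on Affymetrix mouse arrays with 12488 probe sets. The deposited values are signal intensities on a linear scale, made with MAS5 per the submitters' processing notes; the sources used here do not state how arrays were scaled to each other. Signals were raised to a floor at the 10th percentile of all values (4.22), put on the log2 scale and centred on each array's median, with no filter on level. The platform annotation gave 1 gene to 10855 of its 11251 probe sets and several to 396, which were left out, and each of 8252 genes was represented by its probe set of highest mean. All 27 measured members matched RefSeq by Entrez number, with no symbol changed. RefSeq promoter windows were not found for Mx1, Mx2, Usp18, Ifi27 and Ifi204.

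A linear model of group means over all 88 arrays was fitted in R 4.3.3 with the package limma 3.58.1 (intensity trend in the prior variance) and 14 contrasts were tested two-sided, with Benjamini-Hochberg adjustment over all genes and a threshold of 0.05. The script was tested on simulated data. Correlations used deviations from group means in 87 hearts, with two-sided p-values from 100000 permutations within groups and Benjamini-Hochberg adjustment over 54 relations with markers or 351 pairs. The smallest p these permutations can give is 1e-05. The second residual component was computed without the members, and arrays were split at its largest gap.

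The members, gene lists and tests were chosen with earlier results of these data known. Every member is named. For Scarb1, group ranges and genotype tests are given on chow. Members among the 4 largest called differences in a genotype comparison on chow or in probucol in dKO at 31 or 43 days have ranges and tests for both comparisons. The other IRF members are given in shorter form. Alternatives covered scaling, the floor, a filter, averaged probe sets, the groups fitted, a replicate block, array weights, 3' to 5' control ratios, the array set and single hearts left out. Fits within an array set, and leaving out the HET probucol heart outside the HET probucol comparisons, were added after seeing the data. One dKO chow heart at 21 days (replicate 2) carries another age in its description than in its other labels; the other labels were used. The number of arrays limits the precision, most in the HET probucol groups. Labels give 1 mouse per array, and the sources used here do not give litters.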

Additional observations from a re-analysis of the deposited data

Results flagged for a closer look

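Of 216 groups of 4 to 10 hearts examined (27 members in 8 groups each), 19 (8.80%) had 1 heart far from the nearest other, where chance alone gives about 1 in 20. Levels are log2 relative to the array's median. Among the genes that led the genotype difference, Isg20 was -2.42 in HET chow replicate 8 at 21 days (nearest -0.88) and -2.03 in dKO probucol replicate 3 at 21 days (nearest -0.14). Irf8 was -3.33 in HET chow replicate 9 at 21 days (nearest -0.90), and Isg15 was -1.10 in dKO probucol replicate 4 at 43 days (nearest 0.10). Irf5 was -0.56 in HET chow replicate 9 at 43 days (nearest 0.22) and 1.92 in dKO chow replicate 1 at 31 days (nearest 1.39). Of the other factors, Irf7 was -0.15 in dKO probucol replicate 5 at 21 days (nearest 0.57) and Irf9 was -1.51 in HET chow replicate 4 at 21 days (nearest 0.29).

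Among the other effectors, Igtp was 1.69 in dKO chow replicate 2 at 31 days (nearest 0.33) and Ifit1 was -2.84 in dKO probucol replicate 1 at 43 days (nearest -0.38). Mx1 was -0.17 in HET chow replicate 2 at 21 days (nearest -1.92) and -2.17 in dKO chow replicate 7 at 21 days (nearest -2.72). Mx2 was -1.35 in dKO probucol replicate 8 at 31 days (nearest -0.30), and Ifi35 was -1.92 in dKO chow replicate 6 at 31 days (nearest -0.08). Eif2ak2 was -1.11 in HET chow replicate 2 at 21 days (nearest -0.24), -2.13 in HET chow replicate 1 at 31 days (nearest -0.41) and -1.25 in dKO chow replicate 1 at 31 days (nearest -0.52). Ifi27 was -0.090 in dKO probucol replicate 3 at 31 days (nearest 1.63), and Ifi204 was -0.94 in HET chow replicate 9 at 43 days (nearest 0.39).

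Differences between groups under the same contrast were tested as interaction terms with limma, and 22 were called. The genotype difference on chow was larger at 31 than at 21 days for Isg20 (1.55), Irf5 (0.94) and Adar (1.32). For this comparison fewer members were called with the array set as a block and none within the larger set, and the Adar probe sets disagree in sign at 31 days. The difference was larger at 43 than at 21 days for Rsad2 (1.86), Isg20 (2.11), Irf5 (1.04), Irf8 (1.08), Ifi47 (1.50) and Ifi204 (1.02). The probucol difference was more negative in dKO than in HET hearts for Rsad2 (-2.03), Isg20 (-3.65), Ube2l6 (-1.81), Isg15 (-1.33), Irf5 (-0.81), Irf7 (-1.14), Irf8 (-1.70) and Ifitm3 (-0.63). The same was called for Ifit2 (-1.43), Gbp3 (-0.84), Adar (-0.99), Ifi27 (-0.62) and Ifi47 (-1.64), and these 5 were not called without replicate 3 of the HET probucol hearts at 21 days.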

How the results depend on the processing

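No call of a member changed direction under any setting tried. Numbers of members called below are out of 27. Without centring of the arrays 3, 13 and 15 members were called for genotype on chow at 21, 31 and 43 days, 23 for dKO at 31 against 21 days, 4 (all higher) for HET at 43 against 21 days and 0 for probucol in dKO at 21 days. That setting moved the median of all genes from -0.13 to 0.19 at 31 days and from -0.16 to 0.19 at 43 days; 8 and 9 members were shared with the calls after centring. The split of all genes called went from 195 higher and 66 lower to 36 and 89 at 21 days, from 551 higher and 1344 lower to 1287 and 219 at 31 days, from 1261 and 2142 to 2330 and 703 at 43 days, from 473 and 688 to 120 and 1554 for probucol in dKO at 31 days and from 1391 and 1079 to 469 and 2318 at 43 days. It went from 487 and 1587 to 4279 and 60 for dKO at 31 against 21 days, from 472 and 704 to 1080 and 300 at 43 against 31 days, and from 41 and 81 to 989 and 23 for HET age. For the genotype difference it went from 342 and 1093 to 1089 and 28 at 31 against 21 days and from 686 and 1496 to 2159 and 341 at 43 against 21 days, and for the difference of probucol effects from 606 and 512 to 277 and 752. With quantile normalization it was 691 and 795 for genotype on chow at 31 days, 626 and 739 for dKO at 31 against 21 days, 127 and 141 for HET age and 52 and 106 for probucol in HET, where centring gave 24 and 108. That setting gave 255 and 213, and 884 and 1036, for the genotype difference at 31 and 43 against 21 days. Quantile normalization called 2 for HET age, 0 for probucol in dKO at 21 days and 2 for probucol in HET. The HET age count was 0 with averaged probe sets, only the groups compared, no intensity trend, array weights or the smaller array set alone. Probucol in dKO at 21 days gave 0 with only the groups compared, the actin ratio, the array set as a block or the larger set alone, and 3 with array weights. Probucol in HET gave 2 with array weights and 1 with the upper 60% of probe sets, the Gapdh ratio, the actin ratio or the larger set alone. For dKO at 31 against 21 days the actin ratio and the array set as a block each gave 3, and for the genotype difference at 31 against 21 days the block gave 1 and the larger set 0. Genotype on chow gave 0 at 21 days and 5 at 31 days within the larger set, and 2 at 21 days within the smaller set. With 1 heart left out, counts ran from 0 (without dKO chow replicate 2 at 21 days) to 1 for probucol in dKO at 21 days, from 0 to 2 for probucol in HET and from 8 to 16 for the difference of the probucol effects. Same-numbered hearts did not vary together (correlations of -0.21 to 0.25), and with the replicate block the HET age count was 0 and that difference of probucol effects 9. The causes of these changes were not tested. Members near the floor (Mx1, Ifi47) and the HET probucol groups have the least precision.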

Other observations

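The HET probucol heart that stood apart, replicate 3 at 21 days, was also the highest of 88 hearts for 15 of 28 other interferon-induced genes (53.6%), against 1.55% of all genes. The chemokine Cxcl9, a T cell attractant, was 3.51 there and at most -0.15 elsewhere, on the log2 scale relative to the array's median. The GTPase Iigp1 was 7.59 (next highest 4.18) and Gbp7 6.20 (next 2.58). The immunoproteasome subunit Psmb9 was 4.44 (next 1.30), and the MHC class I gene H2-K1 was 7.58 (next 5.97). Of the 20 genes with the largest excess over the next heart among all 8252, 18 were members or on the fixed pathway lists. Among negative regulators Socs1 alone of 11 was highest there, and 0 of 8 ligands and inducers were. Of these 8, Tnf ranked 2 and Il18 ranked 6 from the top, 3.21-fold and 3.38-fold above the median of the other 87 hearts. The others ranked from 14 (Ifna4) to 62 (Ifnb1), and Ifng was at the floor there. Of the marker lists for macrophages, T and NK cells, B cells, dendritic cells and neutrophils, 0 genes were highest in this heart. That rank is among 88 hearts that include dKO hearts on chow, where macrophage markers were higher. Among HET hearts alone, the summed macrophage markers were highest in this heart. The pattern rests on 1 heart.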
